A study of Mus musculus with 2 samples.

Results

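Macrophages that present antigen carry surface proteins which raise or restrain the response of the T cell that touches them. Ligands of the B7 family, among them CD80, CD86, PD-L1 (*Cd274*), PD-L2 (*Pdcd1lg2*), ICOS ligand (*Icosl*) and B7-H3 (*Cd276*), mostly bind receptors of the CD28 family, whereas CD40 is itself a receptor on the presenting cell and is triggered by CD40 ligand on helper T cells. TIM-3 (*Havcr2*) is an inhibitory receptor found on T cells and on myeloid cells, and galectin-3 (*Lgals3*) is a secreted lectin that binds glycans on T cell surface proteins. These 9 genes were chosen by symbol from the 37451 genes of the expression table, and all 9 were found in it.

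The RNA-Seq comprised 1 library of WT bone marrow-derived macrophages (BMDMs) and 1 library of ΔM BMDMs, both from mice of 7 to 9 weeks on the C57BL/6 background. ΔM mice are labelled TTP fl/fl LysMCre, which means that *Zfp36*, the gene of the mRNA-destabilizing protein tristetraprolin (TTP), is removed only in cells that use the lysozyme M promoter, which is active in macrophages and granulocytes. The WT mice were littermates, and neither the floxed or Cre alleles they carried nor the number of mice per library is given in the sources used here. Cells of both genotypes grew in medium with CSF-1 from L929 cells, were labeled with 100 μM 4-thiouridine for 16 h and received 10 ng/ml LPS for 6 h, so no unstimulated sample was analysed here. The 6 h come from the treatment protocol, while both library titles end in LPS7, which is not explained there. The values are FPKMs, that is, fragments scaled by exon length and by the mapped total of the library, which allows levels to be compared between genes. With 1 library per genotype, no difference could be set against the spread of replicates, and no p-value is given. The depth recovered from the steps between low FPKMs was about 37100000 fragments in WT and 32800000 in ΔM, and the 95% Poisson intervals given below rest on it and cover counting error only. In bulk RNA, fewer cells that express a gene and less RNA per cell cannot be told apart.

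The genotype and the cell type were examined first. The deleted gene *Zfp36*, on the minus strand of chromosome 7 (29161803 to 29164274 in mm9), reached 65.3 FPKM in WT (63.2 to 67.4) and 16.7 FPKM in ΔM (15.6 to 17.9). Some *Zfp36* signal therefore remained in the ΔM library, at 0.26 times its WT level. All 8 macrophage markers measured were present in both libraries, with *Cd68* at 388 (WT) and 389.6 FPKM (ΔM), *Emr1* (F4/80) at 379.9 and 357 FPKM and *Csf1r*, the CSF-1 receptor, at 104 and 119 FPKM. Among them only *Lyz2* and *Mrc1* were past 1.5-fold on the log2 scale after adding 1 FPKM, the rule used for every call below. *Lyz2*, the locus from which LysMCre is expressed, was at 2481 (WT) and 1356 FPKM (ΔM), and *Mrc1*, the mannose receptor, was at 5.45 and 11.6 FPKM.

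Markers of other cell types were low, apart from *Lck* and *S100a8*. The 6 dendritic cell markers summed to 0.72 FPKM in WT and 0.64 FPKM in ΔM, with *Ccr7* the most abundant. The 5 B cell markers summed to 0.10 and 0.37 FPKM, with *Cd79b* the most abundant. The 7 T cell markers summed to 10.6 and 11.6 FPKM, of which *Lck*, a kinase of T cells, made up 9.58 and 10.8 FPKM, whereas *Cd3e*, *Cd3g* and *Trac* were listed at 0 in both libraries. Genes of the T cell receptor complex were thus at or near 0. The 5 fibroblast markers summed to 0.64 and 0.40 FPKM, with *Col3a1* the most abundant by its mean, although not in ΔM. The 7 neutrophil markers summed to 50.8 (WT) and 100.5 FPKM (ΔM), and nearly all of this was *S100a8* (50.7 and 100.02 FPKM). Of the 7, *S100a8* alone had a mean of at least 1 FPKM, and it was called higher in ΔM, as were 4.80% of the protein-coding genes. *Elane*, *Ly6g*, *Cxcr2* and *S100a9* were listed at 0 in both libraries. An exact 0 in such a table can also be a failed estimate. The part of *S100a8*-expressing cells in the differences described below was not tested.

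The 9 genes covered a very wide range of expression in LPS-stimulated BMDMs. By uniquely mapped reads, *Lgals3* and *Cd40* were among the most abundant protein-coding genes. *Cd274* was high, *Cd86* was moderate, and *Icosl*, *Cd80*, *Pdcd1lg2*, *Havcr2* and *Cd276* were low or close to 0. Reads without a unique position were not counted. The ranks given below therefore hold among the listed values and not among all mRNAs of the cell. *Gapdh* was listed at only 3.59 (WT) and 2.54 FPKM (ΔM), and whether uncounted reads lowered it was not tested. In ΔM BMDMs *Cd274* and, only slightly, *Lgals3* were higher than in WT. *Cd40*, *Cd86* and *Icosl* were lower, and the other 4 did not differ beyond their counting error. The genes therefore did not move together. Their summed FPKM was 3858 in WT and 3860 in ΔM, of which *Lgals3* made up 67.1% and 75.7% and *Cd40* 29.8% and 20.3%.

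**Figure D1:**
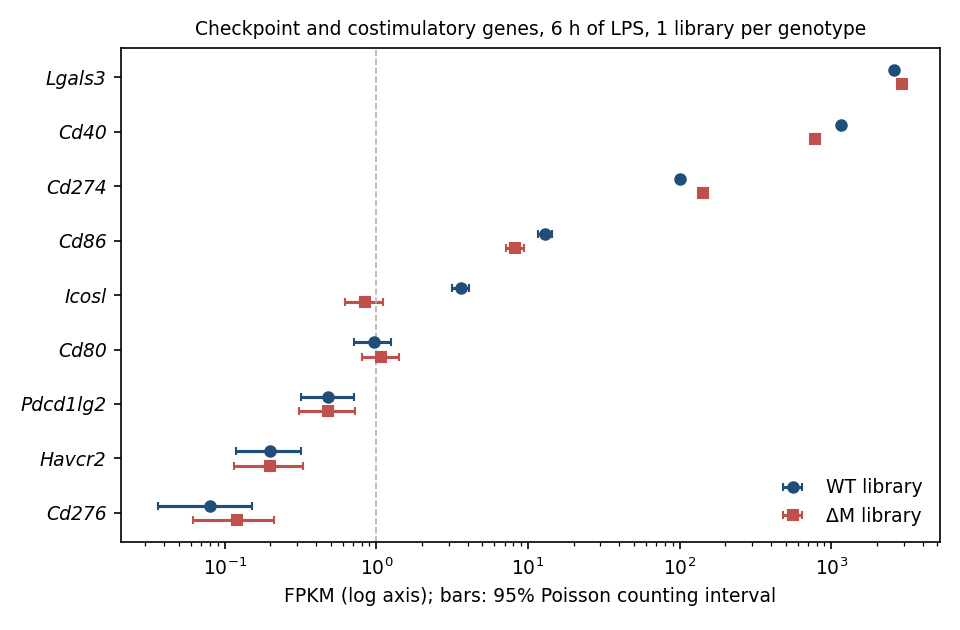
FPKM of the 9 genes in the WT library (circles) and the ΔM library (squares) on a log axis, with 95% Poisson counting intervals as bars and a dashed line at 1 FPKM. *Lgals3* and *Cd40* lie near or above 1000 FPKM, and *Icosl* shows the widest gap between the libraries, from 3.59 FPKM in WT to 0.84 FPKM in ΔM.

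Among the ligands of inhibitory receptors, *Cd274* encodes PD-L1, which binds PD-1 on activated T cells. *Cd274* (ENSMUSG00000016496, chromosome 19, 29441945 to 29462585, plus strand) was at 100.29 FPKM in WT (98.6 to 102) and at 142.7 FPKM in ΔM (140.5 to 145). It was thus 1.42 times as high in ΔM, with a counting interval from 1.39 to 1.46, which is 0.50 on the log2 scale (FPKM + 1). The intervals of the libraries did not overlap, but the ratio stayed under the 1.5-fold rule. Among the 22259 protein-coding genes with a value, *Cd274* moved from rank 383 in WT to rank 258 in ΔM.

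*Pdcd1lg2* encodes PD-L2, the other ligand of PD-1, and is the next protein-coding gene downstream of *Cd274* on the same strand, with 22823 nt between them. *Pdcd1lg2* was at 0.48 FPKM in both libraries, with intervals from 0.32 to 0.71 FPKM in WT and from 0.31 to 0.73 FPKM in ΔM. These values stand for about 25.7 and 22.8 fragments, so that the ratio of ΔM to WT could lie anywhere from 0.55 to 1.82 by counting alone. *Cd274* was at 209 times the FPKM of its neighbor in WT (interval 143 to 320) and at 297 times in ΔM (198 to 469). The PD-1 ligand mRNA in these BMDMs was hence nearly all PD-L1, with overlapping intervals of the ratio in the 2 genotypes.

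*Cd276* encodes B7-H3, whose receptor is not settled. It was at 0.08 (WT) and 0.12 FPKM (ΔM), from about 9.02 and 11.97 fragments. *Havcr2* was at 0.20 FPKM in both libraries, from about 18.0 and 15.9 fragments. For both genes the counting interval of the ratio included 1 (0.58 to 4.03 for *Cd276*, 0.48 to 2.08 for *Havcr2*), so a difference was not detectable at this depth.

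*Cd80* and *Cd86* encode the costimulatory ligands that share the receptors CD28 and CTLA-4. *Cd86* (ENSMUSG00000022901, chromosome 16, 36603955 to 36666167, minus strand) was at 12.95 FPKM in WT (11.7 to 14.3) and at 8.17 FPKM in ΔM (7.11 to 9.37). It was 1.59 times as high in WT as in ΔM (interval 1.33 to 1.89), at a log2 ratio of -0.61 for ΔM over WT. It was called lower, just past the rule, and the interval extends below 1.5-fold. *Cd80* (chromosome 16, 38459013 to 38495821, plus strand) was at 0.96 FPKM in WT (0.71 to 1.25) and at 1.08 FPKM in ΔM (0.81 to 1.41), and the libraries overlapped. The FPKM of *Cd86* was 13.5 times that of *Cd80* in WT (interval 10.1 to 18.3) and 7.56 times in ΔM (5.57 to 10.4). CD86 was the main CD28 ligand mRNA in both genotypes, and the surplus over *Cd80* was smaller in ΔM, although its intervals overlapped between 10.1 and 10.4.

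*Icosl* encodes the ligand of ICOS, a costimulatory receptor of activated and follicular helper T cells. *Icosl* (ENSMUSG00000000732, chromosome 10, 77532105 to 77546000, plus strand) was at 3.59 FPKM in WT (3.14 to 4.07) and at 0.84 FPKM in ΔM (0.62 to 1.11). It was 4.27 times as high in WT as in ΔM, with an interval from 3.13 to 5.94, and the log2 ratio was -1.32. This was the largest ratio between the libraries among the 9 genes. It rests on about 237 fragments in WT and 49.1 in ΔM, and the gene reached the minimum mean of 1 FPKM only through the WT library.

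*Cd40* encodes the receptor by which helper T cells license presenting cells. *Cd40* (ENSMUSG00000017652, chromosome 2, 164881127 to 164898448, plus strand) was at 1149 FPKM in WT (1133 to 1165) and at 785 FPKM in ΔM (771 to 799). It was 1.46 times as high in WT (interval 1.43 to 1.499), with a log2 ratio of -0.55, just under the rule. *Cd40* nevertheless remained near the top of the protein-coding genes ranked by uniquely mapped reads, at rank 13 in WT and rank 21 in ΔM. Since *Cd40* was lower and *Cd274* higher in ΔM, the ratio of their FPKMs went from 11.5 in WT (11.2 to 11.7) to 5.50 in ΔM (5.37 to 5.63).

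*Lgals3*, the galectin-3 gene, was the most abundant of the 9. *Lgals3* (ENSMUSG00000050335, chromosome 14, 47987426 to 48005835, plus strand) was at 2590.05 FPKM in WT (2570 to 2611) and at 2922 FPKM in ΔM (2899 to 2945), rank 3 in both libraries. It was 1.13 times as high in ΔM (1.12 to 1.14), a small difference outside counting error with a log2 ratio of 0.17.

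By the 1.5-fold rule, 2 of the 9 genes, *Cd86* and *Icosl*, were called lower in ΔM and 0 were called higher. Among the 8078 protein-coding genes that averaged 1 FPKM or more, 5.36% were lower and 4.80% were higher by the same rule, and over all 10765 genes of any type 7.51% were lower and 11.2% higher. Past 2-fold, 1 of the same 6 genes, *Icosl*, was lower and 0 were higher, against 1.32% and 1.18% of the protein-coding genes. Counting error alone sets narrow bounds for the abundant genes, so *Cd40* and *Cd274* differed between these libraries far beyond it without reaching the rule, but how much 2 WT libraries would differ is not known. The minimum mean was reached by 6 of the 9 genes, and *Pdcd1lg2*, *Havcr2* and *Cd276* were below it. The median log2 ratio was -0.23 over those 6 and 0 over the 9, against -0.0015 over the protein-coding genes (quartiles -0.19 and 0.18), and no scaling was applied.

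The protein-coding gene nearest to a gene in both libraries was sought by the Euclidean distance of log2(FPKM + 1) over the 2 values. *Cd274* was nearest to *Irf5*, a transcription factor of inflammatory macrophages, at 97.8 (WT) and 136 FPKM (ΔM) (distance 0.08). *Icosl* was nearest to *Myo9a* (3.69 and 0.88 FPKM, distance 0.04). *Cd40* and *Lgals3* had no close match, the nearest being the Fc receptor subunit gene *Fcer1g* at a distance of 0.36 and the actin gene *Actb* at 0.65. *Cd80* was nearest to *Gm14432* and *Cd276* to *Ddb2*, whereas *Tlcd1* had the same values as *Pdcd1lg2* and 2 genes, among them *Tspyl5*, the same values as *Havcr2*. A distance over 2 libraries describes these values only.

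Relatives of these genes were then examined in lists of their families and partners. The other B7 and butyrophilin genes were almost silent apart from *4632428N05Rik*, the older symbol of the VISTA gene *Vsir*, which was at 26.9 (WT) and 31.0 FPKM (ΔM) (log2 ratio 0.20). *Vtcn1* and *Btn1a1* did not exceed 0.07 FPKM in either library, and *Btn2a2* and *Btnl2* were listed at 0. VISTA, a B7-type inhibitory ligand of myeloid cells, was thus more abundant than *Cd86* in both libraries.

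Of the 7 costimulatory ligands of the TNF superfamily, 2 reached the minimum, with a median log2 ratio of -0.49, against -0.14 over all 7. Of these 2, 1 was called lower and 0 higher, against 5.36% and 4.80% of the protein-coding genes. *Tnfsf4*, the OX40 ligand, was at 4.09 (WT) and 2.09 FPKM (ΔM) and was called lower, being 1.96 times as high in WT (interval 1.53 to 2.52). *Tnfsf9*, the 4-1BB ligand, was the most abundant at 11.45 and 9.43 FPKM (log2 ratio -0.26), and *Cd70* was listed at 0. Below the minimum, genes went both ways: *Tnfsf14* was 5.38 times (interval 2.68 to 11.9) and *Tnfsf18* 5.86 times as high in ΔM (2.20 to 19.6), whereas *Tnfsf15* was 2.74 times as high in WT (2.04 to 3.73).

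Of 12 T cell genes for receptors of costimulatory and inhibitory ligands or for the CD40 ligand, 11 were below the minimum, with *Ctla4*, *Cd40lg* and *Tigit* listed at 0. *Lag3*, an inhibitory receptor gene, was among those 11, at 0.15 (WT) and 1.32 FPKM (ΔM), 8.80 times as high in ΔM (interval 3.74 to 25.3, from about 5.63 and 43.9 fragments). *Btla*, also an inhibitory receptor gene among those 11, went the other way, at 0.16 (WT) and 0.05 FPKM (ΔM). It was 3.20 times as high in WT (interval 1.15 to 11.03). The gene above the minimum was *Tnfrsf9*, the 4-1BB receptor gene, at 11.05 (WT) and 6.77 FPKM (ΔM). It was called lower (log2 ratio -0.63), as were 5.36% of the protein-coding genes.

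Among 9 other ligands of antigen-presenting cells, 6 reached the minimum, 2 of them were called lower and 0 higher, against 5.36% and 4.80% of the protein-coding genes. *Cd200*, whose product binds an inhibitory receptor on myeloid cells, was at 25.8 (WT) and 9.50 FPKM (ΔM), 2.72 times as high in WT (interval 2.28 to 3.25). *Cd83*, a marker of activated presenting cells, was at 17.7 and 9.64 FPKM, 1.83 times as high in WT (1.66 to 2.02). The most abundant was *Cd47*, the ligand of SIRPα that restrains phagocytosis, at 207 (WT) and 202 FPKM (ΔM), with libraries that overlapped (ratio 0.98, interval 0.95 to 1.01). The log2 ratios of the 6 ran from -1.35 to -0.03, with a median of -0.40. *Hmgb1* was at 0.66 FPKM in WT. Reads that also match processed copies elsewhere are lost when only uniquely mapped reads are kept. Whether this lowered *Hmgb1* was not tested, so its level is uncertain.

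The galectins showed no such differences. The 3 other galectin genes above the minimum, *Lgals1*, *Lgals8* and *Lgals9* (a reported TIM-3 ligand), had log2 ratios from 0.02 to 0.13. *Lgals9* was the most abundant of them, at 241 (WT) and 244 FPKM (ΔM). *Lgals3bp*, listed with them, encodes a glycoprotein that binds galectin-3 and is not itself a galectin, and it was at 242 and 257 FPKM. *Lgals2* and *Lgals7* were listed at 0. The other TIM genes were as low as *Havcr2* or lower, with *Timd4*, the most abundant, at 0.20 (WT) and 0.03 FPKM (ΔM), 6.67 times as high in WT with a wide interval (1.55 to 60.1, from about 14.6 and 1.94 fragments), and *Timd2* listed at 0.

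All 8 genes that act below CD40 reached the minimum, with a median log2 ratio of -0.19, and 1 was called lower and 0 higher, against 5.36% and 4.80% of the protein-coding genes. *Traf1*, an adaptor induced by NF-κB and the most abundant by its mean, was at 67.5 (WT) and 30.5 FPKM (ΔM), 2.21 times as high in WT (interval 2.09 to 2.34), and in ΔM *Birc3* was above it at 32.1 FPKM. The other 7 had log2 ratios between -0.40 (*Traf2*) and 0.40 (*Map3k14*). Of the 6 factors known to act on PD-L1, 0 were called and the median was 0.01, which with so few genes and these shares says little about them. *Stat3* was the most abundant, at 376 and 374 FPKM, and *Irf1*, a transcription factor that drives *Cd274*, was at 107 (WT) and 109.5 FPKM (ΔM) (log2 ratio 0.04). *Jak2*, which lies upstream of *Cd274* on the same strand with 3 protein-coding genes between them, was at 50.1 (WT) and 37.4 FPKM (ΔM) (log2 ratio -0.41), the opposite direction to *Cd274*.

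**Figure D2:**
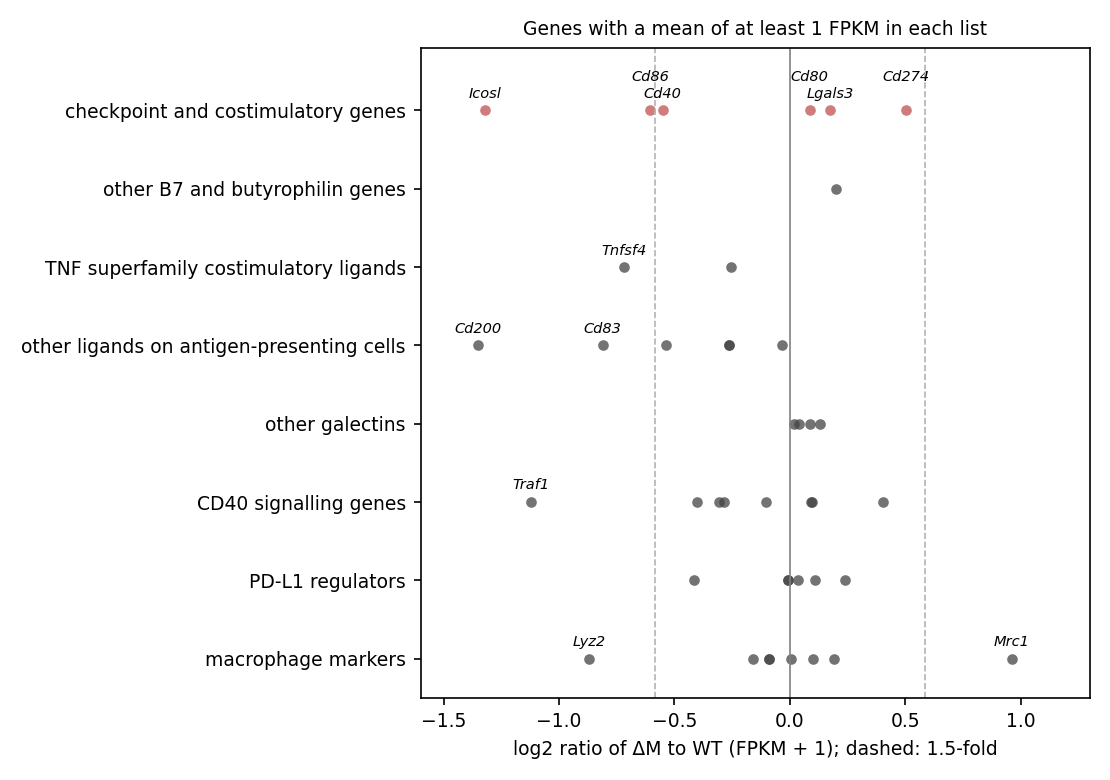
Log2 ratio of ΔM to WT after adding 1 FPKM, 1 point per gene, for genes of each list that averaged 1 FPKM or more; dashed lines mark 1.5-fold, and named points are the checkpoint and costimulatory genes and other genes past the lines. The ratios of the 6 checkpoint and costimulatory genes shown spread from -1.32 to 0.50, whereas the row of other galectins, which includes the galectin-3 binding protein gene *Lgals3bp*, lies between 0.02 and 0.13.

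TTP binds AU-rich elements in 3′ UTRs, whose core is the pentamer AUUUA. In the DNA letters used here this is ATTTA, and TATTTAT is the heptamer around it that TTP prefers. Both motifs were counted on the sense strand only, because they act in RNA, in the longest annotated 3′ UTR of each gene, and every TATTTAT contains an ATTTA. Over 19907 protein-coding genes of the table with a 3′ UTR, 61.4% held at least 1 ATTTA and 23.9% at least 1 TATTTAT. Of the 9 genes, 8 held ATTTA and 3 held TATTTAT. *Cd274* had the most, with 11 ATTTA, 4 of them within TATTTAT, in 2683 nt. *Cd40* followed with 7, 1 of them within TATTTAT, in 2035 nt. Among 3′ UTRs within 10% of the same length, 6.93% had at least as many ATTTA as *Cd274* and 13.5% at least as many as *Cd40*, and the median counts there were 4 and 3. *Pdcd1lg2* had 2 in 665 nt, 1 of them within TATTTAT, whereas 59.1% of 3′ UTRs of such a length held ATTTA.

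The other 6 genes had 0 to 2 pentamers each. *Cd86* had 0 ATTTA in 1493 nt, where 81.3% of 3′ UTRs of like length held at least 1. *Icosl* had 1 in 1622 nt and *Cd80* 2 in 1266 nt, where the median count was 2 for both lengths. *Cd276* had 2 in 2039 nt and *Havcr2* 1 in 1809 nt, against a median of 3 for both. *Lgals3* had 1 in 480 nt, against a median of 0. Counts of 0 to 2 were thus found in genes called lower and in genes that were not. Of the genes that were higher in ΔM, *Cd274* had 11 pentamers and *Lgals3*, which was only slightly higher, had 1. Of those that were lower, *Cd40* had 7, *Icosl* 1 and *Cd86* 0. Whether these counts bear on the ratios was not tested. A match of these letters is a description of the sequence and does not show binding.

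**Figure D3:**
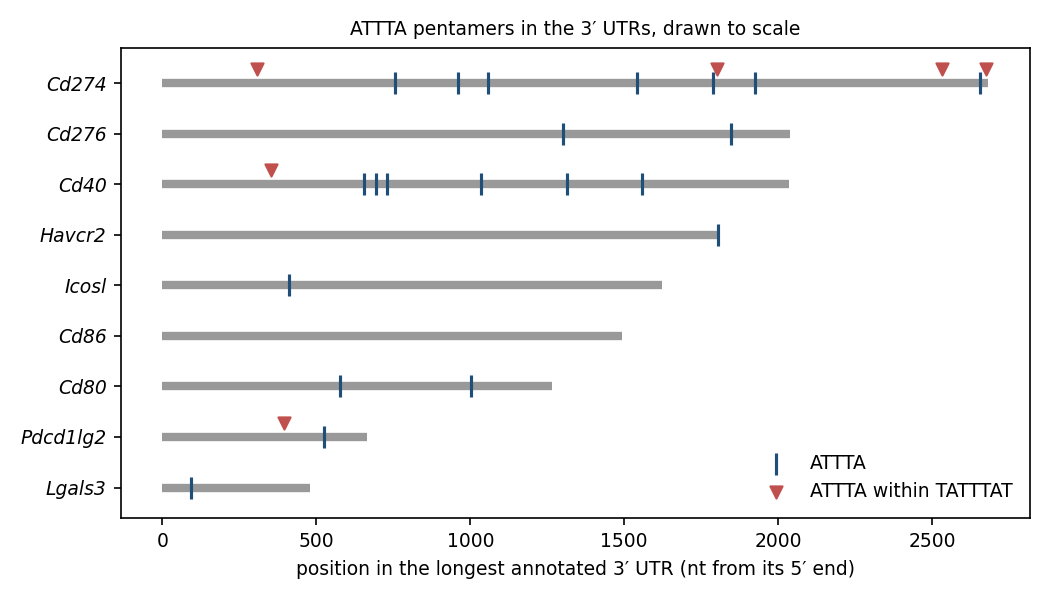
Longest annotated 3′ UTR of each of the 9 genes, drawn to scale in nt from its 5′ end, with ATTTA pentamers as blue bars and pentamers within TATTTAT as red triangles. *Cd274* carries 11 pentamers along 2683 nt, *Cd40* 7 along 2035 nt, and *Cd86* none.

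The 4 heptamer positions of *Cd274* are shown because no other of the 9 genes has more than 1. All 4 fall within the 3′ UTR, which exon 7 of 7 holds, on the plus strand of mm9. Each is printed 5′ to 3′ with ATTTA in capitals and up to 9 nt on either side.
Cd274 chr19:29460201-29460223: gtgccttctATTTAttttgagtc
Cd274 chr19:29461695-29461717: tgtatggatATTTAtgctgcttc
Cd274 chr19:29462424-29462446: acacattctATTTAttcatttta
Cd274 chr19:29462567-29462585: aatatttttATTTAttaaa

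A further stretch of this exon is a binding site that the study mapped by PAR-iCLIP, crosslinking of TTP to RNA followed by sequencing. The copy of the site list used is shortened, and 3 of the sequences read for *Cd274* have 8 to 30 nt, of which 2 lie in exon 7 and 1 in an intron. The one printed here is shown because it holds ATTTA, which the other 2 do not. Its 24 nt, on the plus strand of mm9, contain the pentamer that precedes the second heptamer above, outside TATTTAT. The window of the last heptamer above ends with the annotated transcript.
Cd274 chr19:29461675-29461698: tcttcgccctttttATTTAatgta

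The single heptamers of *Cd40* (exon 9 of 9) and *Pdcd1lg2* (exon 6 of 6) are given for comparison. The only pentamer of *Icosl* (exon 7 of 7) is given as well. In ΔM *Cd40* and *Icosl* were lower, whereas *Pdcd1lg2* showed no detectable difference. All of these motifs lie in the 3′ UTR on the plus strand.
Cd40 chr2:164896758-164896780: tctgtaattATTTAtacaatgac
Pdcd1lg2 chr19:29545367-29545389: aatagagttATTTAtagccctca
Icosl chr10:77541050-77541072: cctgactttATTTAggtctcagg
The *Icosl* pentamer is preceded by T but followed by G, and the gene with the largest ratio between the libraries therefore has no heptamer in this window.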

How the data were processed

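The libraries were the authors' controls for PAR-iCLIP, made from rRNA-depleted and fragmented RNA and sequenced from both ends. Adaptors were removed, reads were aligned to mm9 by Segemehl, and only those with a unique position entered Cufflinks, run on Ensembl exons. The deposited FPKM values have 2 decimals and no counts, so count models were not applicable. In ΔM 1 gene had no number. Genes with near-identical copies lose reads in this mapping.

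Annotation was GENCODE M1 on NCBIM37 (mm9), which held 37039 of the identifiers; positions count from 1. Ratios are log2 of ΔM over WT with 1 FPKM added to each, which understates low genes. A gene was called past 1.5-fold at a mean of 1 FPKM or more. Depth was the fragment total (with WT fragments of 202 nt and ΔM fragments of 201 nt) at which most low FPKMs of single-transcript genes of 450 to 1500 nt equal whole fragments. Within rounding plus 0.01 fragment this held for 92.9% of 1587 values in WT and 93.5% of 1671 in ΔM; the search was tested on simulated data. Intervals of levels are exact Poisson, and those of ratios exact conditional binomial (Clopper-Pearson), at 95%. They take the median annotated transcript length and are approximate where a gene has several transcripts.

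The genes and lists were chosen with earlier results of these data known. Named were the 9 genes, *Zfp36*, the nearest gene to each, and from each list the genes called, the most abundant and those listed at 0. Some genes that this rule names are not reported here. Any other gene named was picked once its values had been seen. Alternatives covered pseudocount, minimum, fold, scaling, features tested and the 3′ UTR used. Python 3.11.15 was used with numpy 2.4.6, pandas 2.3.3, scipy 1.17.1 and matplotlib 3.10.9.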

Additional observations from a re-analysis of the deposited data

How the results depend on the processing

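No paired analysis was possible because each genotype has a single library, which also means that none could be left out. Of the 9 genes, the number called lower in ΔM, 2 in the main calculation, was 0 with a pseudocount of 5 FPKM, 1 with a minimum mean of 10 FPKM and 1 with a fold of 2, and 0 of the 9 were called higher under any alternative run. Genes called numbered 388 higher and 433 lower among protein-coding genes in the main calculation, 640 and 658 with a pseudocount of 0.1 FPKM, 113 and 120 with 5 FPKM, 98 and 119 with a minimum mean of 10 FPKM, 95 and 107 with a fold of 2, and 1201 and 808 when the 10765 genes of any type that averaged 1 FPKM or more replaced the protein-coding ones. An equal pseudocount in both libraries cannot change the sign of a ratio, and the scalings hardly moved any ratio. That 0 called genes changed sign was therefore fixed beforehand. Of 45 comparisons of a gene's log2 ratio with an alternative, 41 stayed within its counting error. The other 4 were the ratio of *Icosl*, at -1.97, -1.61 and -0.56 with pseudocounts of 0.1, 0.5 and 5 FPKM, and that of *Cd276*, at 0.29 with 0.1 FPKM, which follows from adding less or more to low values. The ratio of *Cd274* stayed between 0.49 and 0.51 and that of *Cd40* was -0.55 under each. The median over the genes past the minimum ran from -0.23 to 0, the latter with no minimum. Single-transcript genes of 300 to 800 nt or of 600 to 1500 nt, chosen after seeing the data, gave 36900000 fragments in WT and 32500000 or 32800000 in ΔM. The 3′ UTR of the longest coding transcript was as long as the longest annotated one except in *Cd276* (2037 and 2039 nt), so this alternative says nothing about the pentamer counts. Depth limits *Cd276*, *Havcr2*, *Pdcd1lg2* and *Cd80*, with at most about 53.4 fragments in either library, and *Icosl* in ΔM, with about 49.1.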
